A study of Mus musculus with 12 samples.

Results

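The genes described here are 29 mouse genes of the SREBP pathway, which make cholesterol and fatty acids. They were taken by name from a list of the pathway and not by a cutoff on their measured values. The list was, however, chosen with earlier results of these data known. They are 29 of the 55471 genes in the count table. All 29 passed the filter on low counts, which left 17063 genes to test. They comprise 7 genes of the mevalonate pathway, 10 of the squalene and sterol branch, 3 regulators, 8 genes of fatty acid synthesis and desaturation, and Stard4, a carrier of sterols between membranes. RNA was sequenced from LSK cells (lineage-negative, Sca-1- and Kit-positive cells, a sorted fraction that holds blood-forming stem and early progenitor cells) of mice that had received a primary transplant, taken 6 weeks after tamoxifen. There were 12 libraries in 6 groups of 2. The sample titles and column names do not name experiments. The groups were read as 2 experiments because Prmt1_KO has a control named for it. The first experiment held WT, Hoxa9_KO (the transcription factor Hoxa9 targeted), Bcat_KO (beta-catenin, encoded by Ctnnb1, targeted) and dKO (both targeted). The other held WT_Prmt1 and Prmt1_KO (the arginine methyltransferase Prmt1 targeted). Cells of all 6 groups, controls included, came from transplanted mice after tamoxifen. The sample titles call the altered groups KO, whereas the genotype field calls them knockdown. The sources used here do not give the alleles, the Cre line, or the age and strain of the mice, nor whether the 2 libraries of each group are from different animals. The p-values below therefore measure only the spread between these libraries, which may be technical.

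The sterol regulatory element-binding proteins Srebf1 and Srebf2 are made as membrane proteins of the endoplasmic reticulum. When membrane sterol is low, Scap escorts them to the Golgi, where they are cut, and the released part enters the nucleus and turns on the genes of sterol and fatty acid synthesis. When sterol is high, Insig1, itself a target gene, holds Scap back. Dividing blood cells need both products for new membranes, and the mevalonate pathway also supplies the isoprenoid tails of many signalling proteins.

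Libraries are named by their group and the S tag of their column. The tag S4 occurs in both Hoxa9_KO and Bcat_KO, and the column names do not say which libraries were run together. Depth ran from 17569709 to 40553891 counts per library. Hoxa9 lay at 58.7 and 59.9 CPM (counts scaled to a common effective library size) in WT, between 8.36 and 12.2 in Hoxa9_KO and dKO, and between 41.1 and 61.9 in the other groups. Prmt1 lay at 283 and 292 CPM in the WT_Prmt1 pair and at 118 and 112 in Prmt1_KO. Ctnnb1 lay at 315 and 342 CPM in the WT pair, at 276 and 267 in Bcat_KO and at 227 and 235 in dKO, so much of its transcript was still counted. The LSK markers Kit and Ly6a (Sca-1) were present in every library, at 139 to 461 and 73.7 to 298 CPM, though at different levels in different groups. Xist was at 163 to 202 CPM in WT and WT_Prmt1, 11.2 and 21.9 in Bcat_KO and at most 0.758 in the other knockouts. The Y-linked Ddx3y ranged from 60.6 to 93.5 CPM over the 8 knockout libraries and from 0.792 to 2.87 over the 4 control libraries. Knockout and sex therefore cannot be told apart in any comparison of a knockout with its control, although 27 of the 29 genes are not on the X chromosome (Nsdhl and Ebp are). In bulk RNA, fewer cells of a type and less RNA per cell cannot be told apart either.

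Promoter sequence was looked up because the 29 genes are known as targets of shared transcription factors. RefSeq promoters on GRCm38.p6, 250 bases before to 50 after a start site, were at hand for 22 of the 29 genes. Those of Sqle, Fdft1, Fads1, Scd1, Scd2, Fdps and Stard4 were not in the table. The motifs, 4 in all, were searched on both strands. The sterol response element TCACNCCAC, bound by SREBPs, was in the promoter of 1 of 22 genes (Hmgcs1), and in 1.44% of all 27025 genes with a promoter. The E-box CACGTG was in 4 of 22 (Dhcr7, Hsd17b7, Insig1 and Sc5d), and in 8.09% of all genes. CCAAT, the box bound by the SREBP partner NF-Y, was in 18 of 22 (81.8%), and in 41.1% of all genes. GGGCGG, the GC box bound by Sp1, was also in 18 of 22 (81.8%), and in 38.2% of all genes. A match is a description of letters only. Acaca and Elovl6, which fell in Prmt1_KO, held none of the 4 motifs in their windows. Fads2, which also fell there, held only a GC box, 186 bases before its start site. The 150 bases before the start site are given for 3 genes that fell in Prmt1_KO (Idi1, Cyp51, Fasn), for Hmgcs1, which holds the sterol response element, and for Insig1, a regulator that holds an E-box. Capitals mark every match of the 4 motifs on either strand.
Idi1: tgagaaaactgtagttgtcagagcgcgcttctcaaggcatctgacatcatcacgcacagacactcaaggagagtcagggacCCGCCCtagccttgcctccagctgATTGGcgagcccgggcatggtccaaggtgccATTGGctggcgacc
Cyp51: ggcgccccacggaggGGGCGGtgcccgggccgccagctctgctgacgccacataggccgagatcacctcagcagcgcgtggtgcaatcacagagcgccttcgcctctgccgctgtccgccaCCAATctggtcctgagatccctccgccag
Fasn: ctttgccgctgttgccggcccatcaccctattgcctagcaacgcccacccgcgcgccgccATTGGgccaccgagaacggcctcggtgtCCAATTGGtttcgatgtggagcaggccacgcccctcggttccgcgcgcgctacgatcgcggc
Hmgcs1: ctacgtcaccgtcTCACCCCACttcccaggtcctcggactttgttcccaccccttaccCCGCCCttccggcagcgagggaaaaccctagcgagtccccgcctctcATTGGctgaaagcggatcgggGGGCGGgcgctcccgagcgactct
Insig1: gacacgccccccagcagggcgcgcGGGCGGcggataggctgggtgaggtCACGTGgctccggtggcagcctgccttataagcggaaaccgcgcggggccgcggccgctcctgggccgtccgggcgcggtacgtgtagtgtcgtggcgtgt
These are chr13:8885456-8885605 (plus strand), chr5:4104698-4104847 (minus), chr11:120824548-120824697 (minus), chr13:119690201-119690350 (plus) and chr5:28071262-28071411 (plus), in that order, each 5′ to 3′ on the gene's strand. The RefSeq start sites used lay 105, 49 and 49 bases inside the annotated gene for Idi1, Cyp51 and Insig1, at its first base for Fasn, and 28 bases upstream of it for Hmgcs1. Idi1 held 2 inverted CCAAT boxes, 45 and 14 bases before the start site (counted to the motif's first base), and Fasn held 3 CCAAT boxes in either orientation, at 90, 62 and 59 bases, the last 2 sharing letters. Cyp51 held 1 CCAAT box 29 bases and 1 GC box 135 bases before its start site. Hmgcs1 held the response element at 137 bases, an inverted CCAAT box at 45 and GC boxes at 92 and 24. Insig1 held the E-box at 101 bases and a GC box at 126.

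Per kilobase of exon, mean level over the 12 libraries spanned 0.647 to 56.9 CPM per kb. The length used was all annotated exon bases of a gene, which can exceed the length of its transcripts. Levels of different genes can therefore be compared only roughly, and low ranks such as those of Lss and Fdps depend on this length. Acly, the ATP citrate lyase that supplies cytosolic acetyl-CoA, was highest at 56.9, followed by Srebf2 at 48.1, Fads2 at 47.1, Scd2 at 35 and Fads1 at 31.5 CPM per kb. Srebf1 lay at 18.4 and Insig1 at 13.5 CPM per kb. The desaturase Scd2 stood well above its paralog Scd1, which was 28th at 0.923 CPM per kb. Within the sterol pathway Ebp, a sterol isomerase, was highest at 21.2 CPM per kb, and the other enzymes except Fdps lay between 1.42 (Lss, the lanosterol synthase) and 13.2 (Pmvk, the phosphomevalonate kinase). Fdps, the farnesyl diphosphate synthase, was last at 0.647 CPM per kb on 16 to 95 counts per library. Its values are uncertain: Gm43738, which shares 26.7% of its exon bases on the same strand, and 4 processed pseudogenes match 74.3 to 81.6% of its transcript at 95% identity or more, so the counting could have lost or moved its reads.

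The 29 genes were called (adjusted p under 0.05 in edgeR's quasi-likelihood test, Benjamini-Hochberg over all 17063 genes) in different numbers in each knockout. In Prmt1_KO against WT_Prmt1, 11 fell and 2 rose, in a comparison where 32.5% of all genes were called (16% lower and 16.6% higher). In dKO against WT, 4 fell and 3 rose, where 17.7% of all genes were called (8.52% lower and 9.15% higher). In Hoxa9_KO against WT, 2 fell and 2 rose, where 6.73% were called (2.3% lower and 4.44% higher). In Bcat_KO against WT, 2 fell and none rose, where 17.2% were called (9.76% lower and 7.48% higher). The genes called were thus 44.8% of the 29 in Prmt1_KO, 24.1% in dKO, 13.8% in Hoxa9_KO and 6.9% in Bcat_KO, above the share of all genes in the first 3 and below it in Bcat_KO; no test of these shares was made. These counts depended on single libraries. In Prmt1_KO the 13 called members became 8 without WT_Prmt1 S10, 7 without WT_Prmt1 S11, and 6 without Prmt1_KO S8 or S9, which is 20.7 to 27.6% beside 20.5 to 21% of the genes then tested. Without Prmt1_KO S8 or S9 the share of the 29 was 20.7%, beside 20.8% and 20.5%, so the excess over all genes was no longer there. In dKO the 7 became 3 without WT S2 or dKO S7 (10.3%, beside 8.6% and 9.19% of genes). In Hoxa9_KO the 4 became 1 without WT S1 (3.45%, beside 2.67%) and 2 without WT S2 or Hoxa9_KO S5 (6.9%, beside 3.16% and 4.87%). In Bcat_KO the 2 became 1 without Bcat_KO S3 and 0 without WT S2 or Bcat_KO S4. Counted without a test, both knockout libraries lay below both controls for 14 of the 29 genes in Prmt1_KO, 15 in dKO and 7 in Hoxa9_KO, beside 35.2%, 29.1% and 25.1% of all genes. They lay above for 4, 5 and 5 genes, beside 33%, 29.6% and 25.8% of all genes. The median log2 change of the 29 was -0.21 in Prmt1_KO, -0.14 in dKO, -0.04 in Hoxa9_KO and -0.15 in Bcat_KO, beside -0.03, 0.01, -0.00 and -0.04 over all genes tested. Hoxa9_KO, Bcat_KO and dKO were all set against the same 2 WT libraries, so their changes are not independent.

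**Figure D1:**
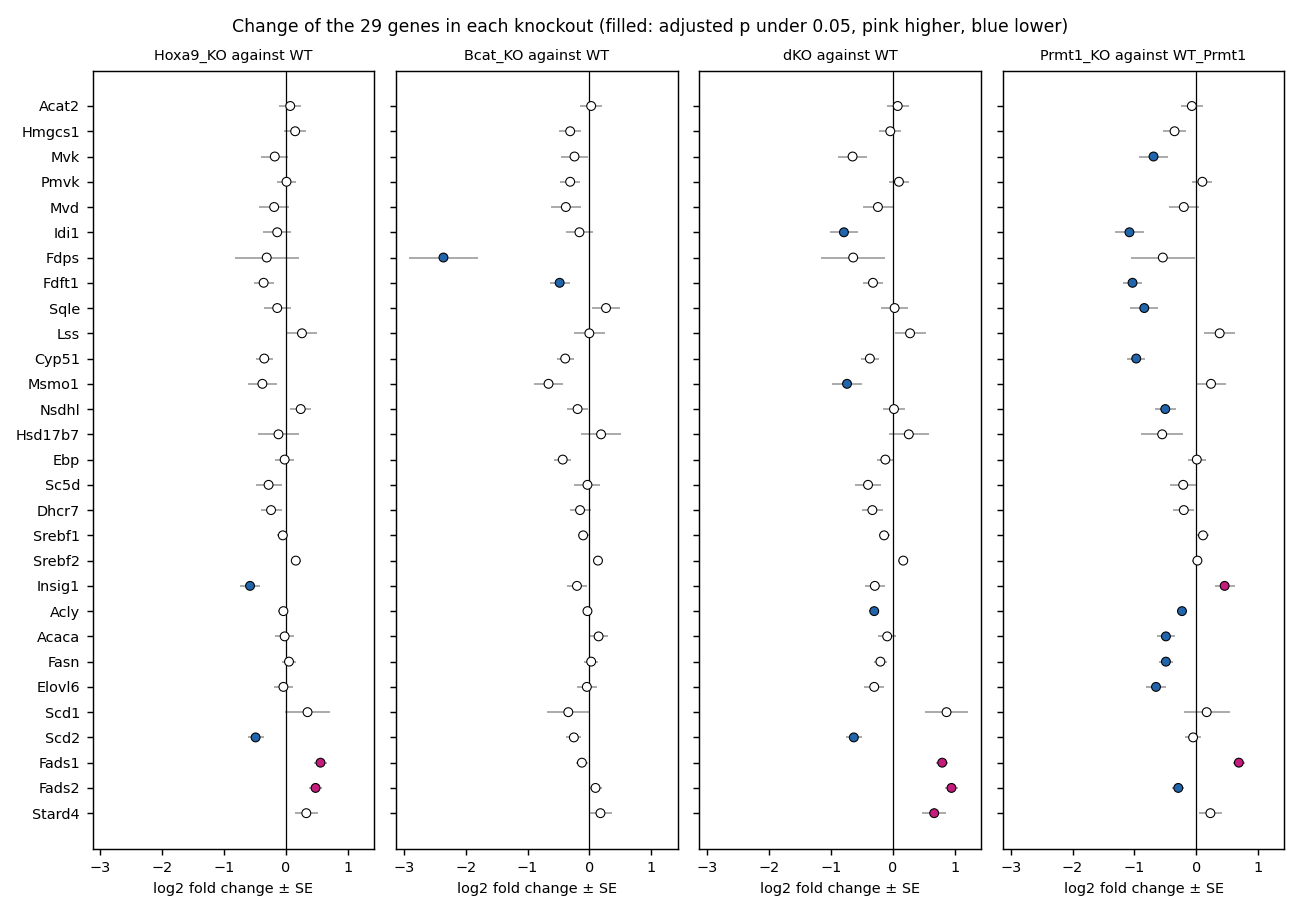
Log2 fold change of each of the 29 genes (rows, ordered by role) with its standard error in 4 comparisons (panels); filled points passed an adjusted p of 0.05 (pink higher, blue lower). In Prmt1_KO 11 genes of both the sterol and the fatty acid arm are filled blue, in Hoxa9_KO and dKO the filled pink points include Fads1 and Fads2, and in Bcat_KO only Fdps and Fdft1 are filled.

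In Prmt1_KO, enzymes on both sides of squalene fell, the most changed by 1.96 to 2.11 times. Idi1, the isomerase that makes dimethylallyl diphosphate, lay at 13 and 13.8 CPM in the WT_Prmt1 libraries and at 6.37 and 6.29 in Prmt1_KO (log2 change -1.08 ± 0.23 SE, adjusted p = 0.00153). Fdft1, the squalene synthase at the branch point to sterols, lay at 27.4 and 32 CPM against 14.6 and 14.5 (-1.03 ± 0.16, adjusted p = 8.26e-05). Cyp51, the demethylase of lanosterol, lay at 38.9 and 37.7 CPM against 20.4 and 18.8 (-0.97 ± 0.15, adjusted p = 5.72e-05). For each of the 3 enzymes both knockout libraries were below both controls with no overlap, and each call held when any 1 of the 4 libraries was left out. Their knockout values were also the lowest of all 12 libraries. Sqle, the squalene epoxidase, lay at 38.6 and 30.2 CPM in the WT_Prmt1 pair and at 19.1 and 19.2 in Prmt1_KO (-0.84 ± 0.23, adjusted p = 0.0128). Mvk, the mevalonate kinase, lay at 12.1 and 9.35 CPM against 6.62 and 6.69 (-0.69 ± 0.23, adjusted p = 0.0298). Nsdhl, a sterol dehydrogenase encoded on the X chromosome, lay at 20.2 and 24.7 CPM against 17.5 and 14.3 (-0.50 ± 0.17, adjusted p = 0.0344). These 3 also separated without overlap, but their calls did not hold when certain libraries were left out. The call of Sqle was lost without WT_Prmt1 S10 (adjusted p = 0.133), Prmt1_KO S8 (0.101) or Prmt1_KO S9 (0.0991), and that of Mvk without the same libraries (0.268, 0.131 and 0.125). The call of Nsdhl was lost without WT_Prmt1 S11 (0.339) or Prmt1_KO S9 (0.295), and at 0.0504 with a non-robust estimate of the spread. In all, 6 of the 17 mevalonate, squalene and sterol enzymes fell and none rose, where 32.5% of all genes were called (16% lower and 16.6% higher). Their summed level was 361 and 368 CPM in the WT_Prmt1 pair and 288 and 284 in Prmt1_KO.

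The other 11 enzymes of the sterol pathway did not pass the test and had log2 changes from -0.55 (Hsd17b7, adjusted p = 0.236) to 0.38 (Lss, adjusted p = 0.290). Hmgcs1, the HMG-CoA synthase at the entry of the pathway, lay at 28.4 and 26.3 CPM in the WT_Prmt1 pair and at 18.7 and 24.2 in Prmt1_KO (-0.35 ± 0.18, adjusted p = 0.158). Lss, which closes the sterol rings, lay at 8.38 and 8.81 CPM against 12.6 and 9.72, above the control in both libraries. Msmo1, a sterol methyl oxidase, lay at 9 and 12.7 CPM against 13 and 12.7 (0.24 ± 0.25, adjusted p = 0.505). Ebp lay at 52.6 and 54.4 CPM against 55.1 and 52.4 (0.01 ± 0.15, adjusted p = 0.983). Acat2 (a thiolase), Pmvk, Mvd (the decarboxylase of the pathway), Sc5d and Dhcr7 (late sterol enzymes) had log2 changes between -0.21 and 0.10, and Fdps one of -0.54 ± 0.52. With a standard error of 0.15 or more in all 11, equality with the control is not shown.

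Fdft1 shares 18.8% of its exon bases with Ctsb, on the opposite strand. Ctsb fell less in Prmt1_KO, from 604 and 628 CPM to 495 and 467 (-0.36 ± 0.08, adjusted p = 0.00201). The sources used here do not say whether the authors counted by strand, and the part of the Fdft1 count that came from Ctsb was not tested. Cyp51 shares 3.8% of its exon bases with Akap9, which had a log2 change of 0.00 ± 0.27. Idi1 has a pseudogene, Gm13502, that matches 22.6% of its transcript and held 14 counts over all libraries, against 3440 for Idi1. Acat3 matches 65.6% of the Acat2 transcript and Tcp1 matches 19.8%. They held 82 and 117647 counts over all libraries, against 5490 for Acat2. Whether the Idi1 and Acat2 counts lost or gained reads through these copies was not tested.

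**Figure D2:**
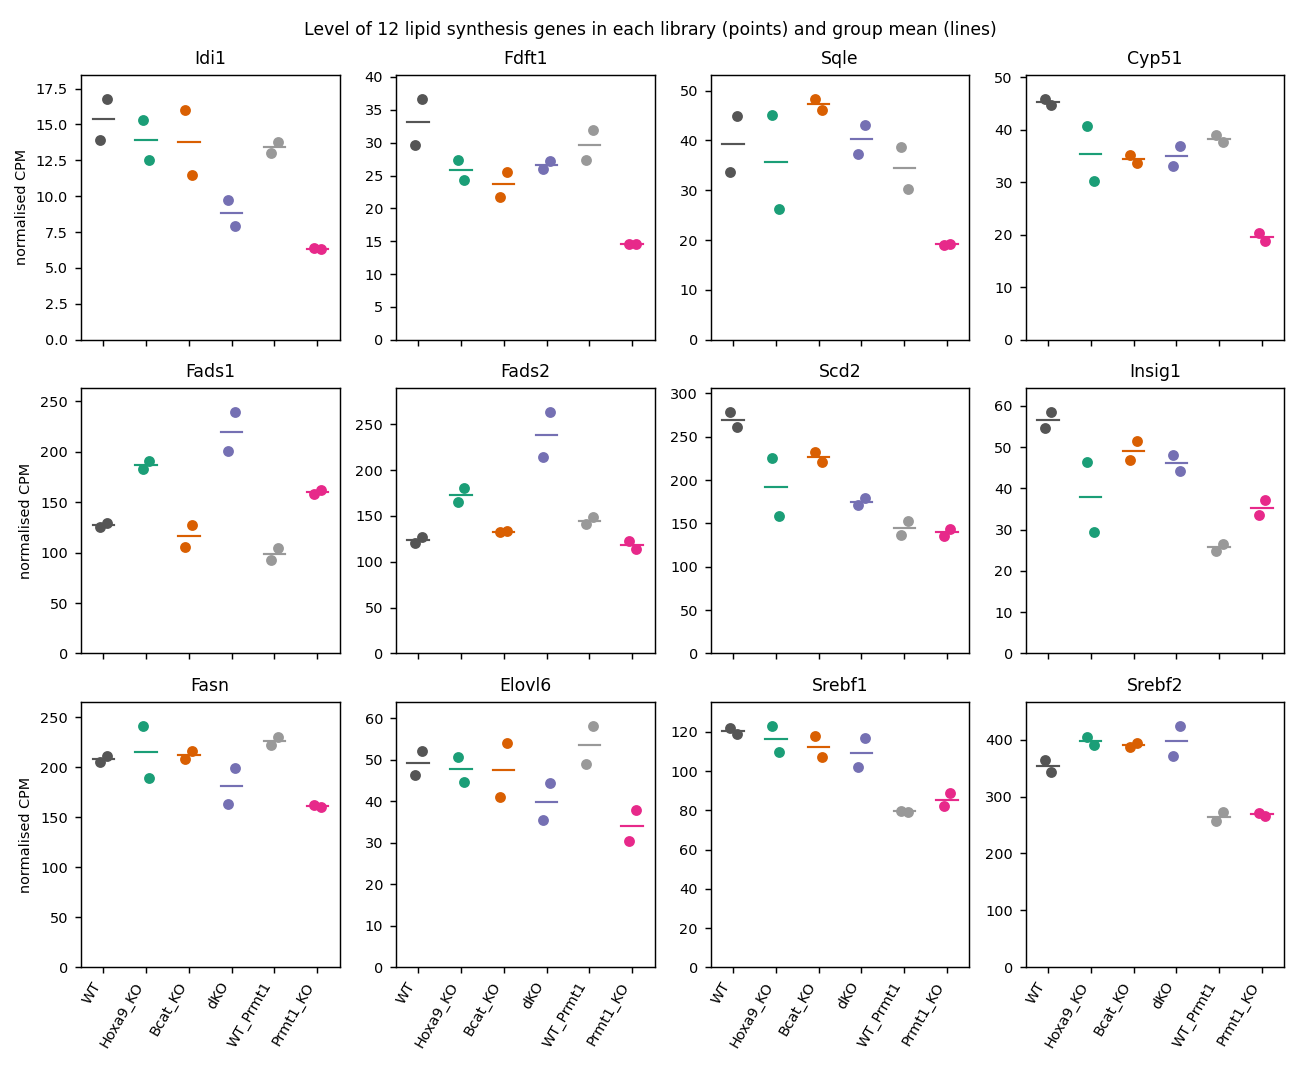
Level of 12 of the genes in normalised CPM (vertical axes, each from 0) in the 6 groups, with 1 point per library and a line at the mean of 2 libraries. Idi1, Fdft1, Sqle and Cyp51 are lowest in Prmt1_KO, Fads1 and Fads2 are highest in dKO at 201 to 263 CPM, and Srebf1 and Srebf2 are lower in WT_Prmt1 and Prmt1_KO than in the other 4 groups.

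Of the 8 genes of fatty acid synthesis and desaturation, 5 also fell in Prmt1_KO, by 0.23 to 0.65 on the log2 scale, and 1 rose. Of all genes, 16% were called lower and 16.6% higher. Fasn, the fatty acid synthase, lay at 222 and 230 CPM in the WT_Prmt1 pair and at 162 and 160 in Prmt1_KO (-0.49 ± 0.11, adjusted p = 0.00176). This call held when any 1 library was left out. Elovl6, which lengthens palmitate, lay at 49 and 58.1 CPM against 30.4 and 37.8 (-0.65 ± 0.16, adjusted p = 0.00466). Acaca, the acetyl-CoA carboxylase that makes malonyl-CoA, lay at 47.1 and 43.2 CPM against 32.2 and 32 (-0.49 ± 0.15, adjusted p = 0.0211). Acly lay at 300 and 342 CPM against 271 and 277 (-0.23 ± 0.08, adjusted p = 0.0308). Knockout and control libraries did not overlap in any of the 4 genes. The call of Elovl6 was lost without WT_Prmt1 S11 (adjusted p = 0.0776) or Prmt1_KO S8 (0.0729). That of Acaca was lost without any 1 of the 4 libraries (0.058 to 0.144). That of Acly was lost without WT_Prmt1 S11 (0.492), Prmt1_KO S8 (0.188) or Prmt1_KO S9 (0.108), and at 0.0791 without the filter on low counts. The gene Gm5182 is a processed pseudogene that matches 64.3% of the Acaca transcript, and held 57 counts over all libraries against 14629. Whether the Acaca count lost or gained reads through this copy was not tested.

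The 2 desaturases of polyunsaturated fatty acid synthesis, neighbours on chromosome 19, moved in opposite directions in Prmt1_KO. Fads1 (chr19:10182888-10196877) rose from 93.1 and 105 CPM to 158 and 162 (0.69 ± 0.10, adjusted p = 5.05e-05), and the call held without any 1 library. Fads2 (chr19:10062765-10101746) fell from 141 and 149 CPM to 123 and 114 (-0.29 ± 0.10, adjusted p = 0.0283), and leaving out any 1 of the 4 libraries ended the call (0.0564 to 0.22). Fads1 thus separated the groups widely and Fads2 narrowly, both without overlap. Scd2, which makes monounsaturated fatty acids, lay at 137 and 153 CPM in the WT_Prmt1 pair and at 136 and 143 in Prmt1_KO (-0.05 ± 0.13, adjusted p = 0.799), and Scd1 at 2.38 and 2.34 against 2.33 and 2.94 (0.17 ± 0.37, adjusted p = 0.786). The summed level of the 8 genes was 991 and 1081 CPM in the WT_Prmt1 pair and 915 and 929 in Prmt1_KO.

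The transcripts of the SREBPs themselves differed little between Prmt1_KO and its control. Srebf1 lay at 79.7 and 79.3 CPM in the WT_Prmt1 pair and at 82.3 and 88.7 in Prmt1_KO (0.11 ± 0.09, adjusted p = 0.442). Srebf2 lay at 257 and 273 CPM against 272 and 266 (0.02 ± 0.08, adjusted p = 0.863). The Srebf2 libraries overlapped, and its log2 change ± 2 SE spanned -0.13 to 0.18. Insig1, the sterol-regulated retention factor, rose from 24.8 and 26.6 CPM to 33.5 and 37.2 (0.46 ± 0.16, adjusted p = 0.0409). The Insig1 call was lost without any 1 of the 4 libraries (0.0626 to 0.216), with scaling to library size alone (0.186) and with a non-robust spread (0.069). Stard4 lay at 34.6 and 45.1 CPM against 45 and 48.8 (0.23 ± 0.19, adjusted p = 0.393). Scaling to library size alone moved the median of all genes in this comparison from -0.03 to -0.17, and with it the log2 change of Srebf1 to -0.03 and of Srebf2 to -0.12; the split of all called genes went from 2826 higher and 2728 lower to 2052 and 3592. The 11 members called lower were again 11 under that scaling, with 1 called higher.

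Other genes around the pathway were counted from lists of the pathway's neighbours. These counts stand beside 32.5% of all genes called in Prmt1_KO (16.6% higher and 16% lower). Of 9 genes that process or degrade SREBPs, 3 rose and 1 fell in Prmt1_KO. Scap, the escort protein, fell from 146 and 152 CPM to 95.7 and 96 (-0.64 ± 0.08, adjusted p = 9.32e-06), and Rnf145, a ubiquitin ligase that targets Scap, rose from 40 and 39.2 CPM to 76.2 and 92.3 (1.09 ± 0.13, adjusted p = 3.43e-06). Of 14 genes of sterol efflux, esterification and trafficking, 5 rose and 1 fell. Abca1, the cholesterol exporter, rose from 9.11 and 9.35 CPM to 30.1 and 30.9 (1.72 ± 0.22, adjusted p = 9.4e-06), Nceh1, a cholesteryl ester hydrolase, from 47.5 and 52.3 to 149 and 136 (1.52 ± 0.12, adjusted p = 4.39e-08), and Soat1, which esterifies cholesterol, by 1.05 ± 0.17 on the log2 scale (adjusted p = 0.000144). Scap, Rnf145, Abca1, Nceh1 and Soat1 kept their libraries apart and kept their calls without any 1 library. Of 15 other sterol and isoprenoid enzymes, 4 fell and 2 rose, led by Coq2 of ubiquinone synthesis (-0.79 ± 0.12, adjusted p = 4.86e-05), Dhdds of dolichol synthesis (-0.69 ± 0.10, adjusted p = 4.88e-05) and Ggps1, the geranylgeranyl diphosphate synthase (0.91 ± 0.18, adjusted p = 0.000755).

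Of 18 tested genes of fatty acid oxidation, 10 rose and 1 fell in Prmt1_KO, and 7 and 1 of these calls held without any 1 library. Eci2, an enoyl-CoA isomerase, rose from 59.4 and 57.6 CPM to 115 and 106 (0.92 ± 0.10, adjusted p = 1.65e-06), Acadvl by 0.78 ± 0.11 (adjusted p = 3.08e-05) and Etfdh by 0.61 ± 0.10 (adjusted p = 8.52e-05). The 19 listed oxidation genes summed to 1274 and 1370 CPM in the WT_Prmt1 pair and to 1915 and 1887 in Prmt1_KO, above both controls. Of 21 other genes of fatty acid supply, elongation and desaturation, 5 rose and 2 fell. Acss2, which makes acetyl-CoA from acetate, rose from 21.9 and 23.1 CPM to 50.8 and 51.8 (1.19 ± 0.11, adjusted p = 4.18e-07). Slc25a1, the citrate carrier upstream of Acly, fell from 127 and 127 CPM to 85.2 and 74.4 (-0.67 ± 0.09, adjusted p = 1.34e-05), and Tecr, a reductase of the elongation cycle, fell by 0.68 on the log2 scale (adjusted p = 2.93e-06). Of 6 genes of lipid uptake, 3 rose and 3 fell, led by Cd36 (-2.50 ± 0.28, adjusted p = 2.47e-06), Scarb1 (0.56 ± 0.10, adjusted p = 0.000189) and Lrp8 (-1.30 ± 0.25, adjusted p = 0.000669). The 9 genes named here kept their calls without any 1 library, and the shares called stand beside 32.5% of all genes.

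Markers of the sorted cells and of other cell states moved with these changes. Of the 10 LSK genes 5 rose and 1 fell in Prmt1_KO. The sort markers were among them, with Kit at 144 and 139 CPM in the WT_Prmt1 pair and 330 and 308 in Prmt1_KO (1.17 ± 0.10, adjusted p = 2.61e-07), and Ly6a at 99.6 and 86.9 against 298 and 270 (1.61 ± 0.12, adjusted p = 2.59e-08). The 10 genes of dividing cells summed to 1742 and 1788 CPM in the WT_Prmt1 pair and to 711 and 783 in Prmt1_KO, and 9 of the 10 fell. The 5 megakaryocyte markers summed to 46.1 and 43.2 CPM against 598 and 559 (4 of 4 tested rose, with Gp1bb at or near 0 in every library), the 6 B cell markers to 617 and 597 against 60.6 and 63.6 (6 of 6 fell), the 9 granulocyte markers to 1180 and 1281 against 4236 and 4018 (1 of 9 rose), and the 6 macrophage and monocyte markers to 234 and 248 against 507 and 506 (1 of 6 fell). The erythroid sum was 663 and 590 CPM against 59.2 and 53.6 (5 of 9 fell, 2 rose) and the stromal sum 391 and 667 against 170 and 164. The calls of falling erythroid markers and the granulocyte and macrophage calls were each lost when 1 library or another was left out. Adipocyte markers summed to at most 4.92 CPM in any library, with Adipoq, Plin1 and Cidec at or near 0. The part of the sort markers, the other cell types and division in the changes of the 29 genes was not tested.

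**Figure D3:**
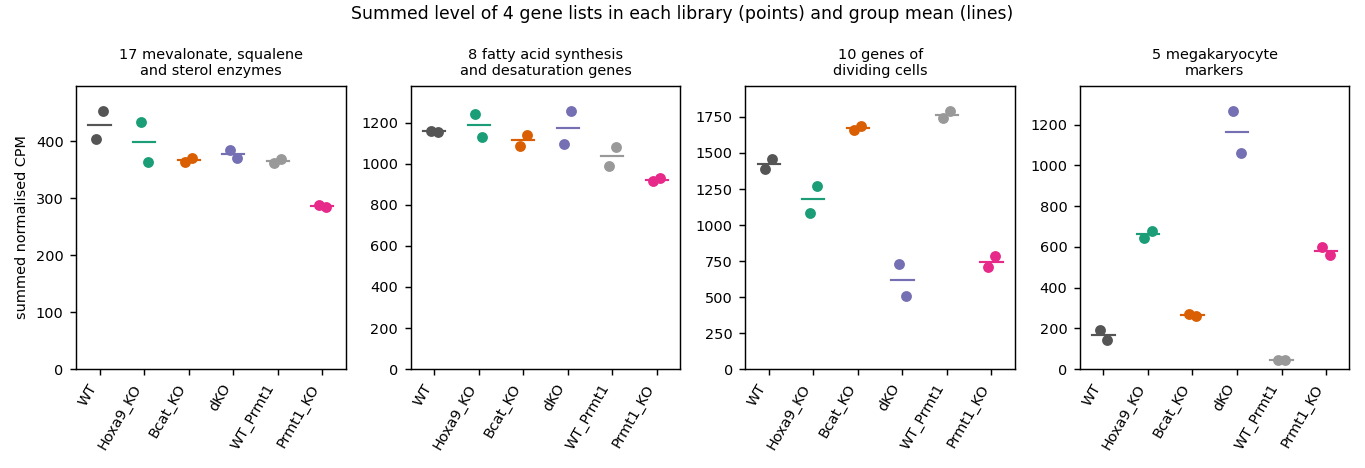
Summed normalised CPM (vertical axes from 0) of 17 sterol pathway enzymes, 8 fatty acid genes, 10 genes of dividing cells and 5 megakaryocyte markers, with 1 point per library and a line at the group mean. Prmt1_KO lies lowest for the sterol enzymes (288 and 284 CPM) and the fatty acid genes, while the genes of dividing cells are low in both dKO (731 and 509 CPM) and Prmt1_KO.

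In Hoxa9_KO and dKO the polyunsaturated fatty acid desaturases rose together. Fads1 lay at 125 and 129 CPM in the WT pair, at 183 and 191 in Hoxa9_KO and at 201 and 239 in dKO. Its log2 change was 0.56 ± 0.10 in Hoxa9_KO (adjusted p = 0.00211) and 0.80 ± 0.10 in dKO (adjusted p = 3.2e-05). Fads2 lay at 121 and 127 CPM in the WT pair, at 165 and 181 in Hoxa9_KO and at 214 and 263 in dKO. Its log2 change was 0.48 ± 0.10 in Hoxa9_KO (adjusted p = 0.00446) and 0.95 ± 0.10 in dKO (adjusted p = 3.39e-06). No library of Hoxa9_KO or dKO overlapped WT for either gene. Both dKO calls and the Fads1 call in Hoxa9_KO held without any 1 library, whereas Fads2 in Hoxa9_KO was lost without WT S1 (0.0677). In Bcat_KO Fads1 lay at 106 and 127 CPM (-0.12) and Fads2 at 132 and 134 CPM (0.10), neither called. Fads3, the neighbouring paralog from the wider list, lay at 16.8 and 10.3 CPM in the WT pair and at 25.7 and 27.3 in dKO (0.97 ± 0.19, adjusted p = 0.00147).

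Scd2 went the other way. It lay at 278 and 261 CPM in the WT pair, at 225 and 158 in Hoxa9_KO, at 232 and 221 in Bcat_KO and at 171 and 179 in dKO. All 6 knockout libraries were below both WT libraries. Scd2 fell by 0.63 on the log2 scale in dKO (SE 0.13, adjusted p = 0.00314), a call that held without any 1 library. In Hoxa9_KO it fell by 0.49 (SE 0.13, adjusted p = 0.0315), but the 2 libraries differed widely, and the call did not survive leaving out WT S1 (0.177), WT S2 (0.0891) or Hoxa9_KO S5 (0.181), with scaling to library size (0.0851), in fits to the groups compared (0.194) or the experiment (0.072) alone, and with a non-robust spread (0.0596). In Bcat_KO the log2 change of Scd2 was -0.25 and was not called. Scd1, at 4.92 and 4.12 CPM in the WT pair and 5.73 and 10.8 in dKO, had a log2 change of 0.87 ± 0.35 in dKO (adjusted p = 0.108).

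The other members called in dKO were Idi1, Msmo1 and Acly, which fell, and Stard4, which rose. Idi1 lay at 13.9 and 16.8 CPM in the WT pair and at 9.76 and 7.9 in dKO (-0.79 ± 0.23, adjusted p = 0.0216). Msmo1 lay at 19.9 and 26.7 CPM against 14 and 13.9 (-0.74 ± 0.24, adjusted p = 0.0458). Acly lay at 329 and 312 CPM against 264 and 257 (-0.30 ± 0.08, adjusted p = 0.0117). Stard4 lay at 53.6 and 62 CPM in the WT pair against 78.2 and 105 in dKO (0.67 ± 0.19, adjusted p = 0.029). None of the 4 genes overlapped between WT and dKO, yet each call was lost without certain libraries. Idi1 was lost without WT S2 (0.234) or dKO S7 (0.194), and Acly without dKO S7 (0.0662), WT S1 (0.143) or WT S2 (0.0688). Msmo1 was lost without WT S2 (0.414), dKO S6 (0.116) or dKO S7 (0.166), and in a fit to the experiment alone (0.0591), with a non-robust spread (0.0819) and with limma-voom (0.059). Stard4 was lost without dKO S7 (0.252), WT S1 (0.192) or WT S2 (0.0651), and with scaling to library size (0.0679). Of the 17 mevalonate, squalene and sterol enzymes 2 fell and none rose, beside 8.52% lower and 9.15% higher of all genes. The summed level of the 17 was 404 and 452 CPM in the WT pair and 384 and 370 in dKO. Mvk, at 16 and 18.9 CPM in the WT pair and 13.2 and 9.03 in dKO, just missed the threshold (-0.65 ± 0.23, adjusted p = 0.059). Fdft1 (-0.32), Cyp51 (-0.37), Fasn (-0.20) and Elovl6 (-0.30), which fell in Prmt1_KO, were below 0 and not called, and Sqle was at 0.03.

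Insig1 was the fourth gene called in Hoxa9_KO. It lay at 54.7 and 58.4 CPM in the WT pair and at 46.3 and 29.4 in Hoxa9_KO, below WT in both libraries but far apart (-0.58 ± 0.16, adjusted p = 0.0412). The call did not survive leaving out WT S1 (0.117), WT S2 (0.231) or Hoxa9_KO S5 (0.378), with scaling to library size (0.0645), in fits to the groups compared (0.172) or the experiment (0.0915) alone, and with a non-robust spread (0.0849). The granulocyte markers summed to 229 CPM in Hoxa9_KO S4 and 1384 in S5, and their part in this spread was not tested. Hoxa9_KO S4 was above S5 for 13 of the 17 sterol pathway enzymes and for 23 of the 29 genes, with Sqle at 45.2 against 26.3 CPM, Msmo1 at 22.6 against 13.4 and Dhcr7 at 43.7 against 27.7. Over all tested genes counted in every library, the median log2 ratio of Hoxa9_KO S4 to S5 was -0.02. WT S2 was above WT S1 for 14 of the 17, and dKO S7 above S6 for 7 of the 8 fatty acid genes. In the other groups the 17 split more evenly. Bcat_KO S3 was above S4 for 10, dKO S6 above S7 for 10, WT_Prmt1 S10 above S11 for 7 and Prmt1_KO S8 above S9 for 9. None of the 17 enzymes was called in Hoxa9_KO by edgeR, DESeq2 or limma-voom, and 2 had an unadjusted p under 0.05 in edgeR. Their summed level was 433 and 364 CPM in Hoxa9_KO, which overlapped the WT range. Srebf1 lay at 122 and 119 CPM in the WT pair and between 102 and 123 in Hoxa9_KO, Bcat_KO and dKO. Srebf2 lay at 365 and 344 CPM in the WT pair and between 371 and 424 in the 3 knockouts, above WT in every library, with log2 changes of 0.14 to 0.17 that were not called.

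In Bcat_KO 2 of the 29 genes were called, or 6.9% where 17.2% of all genes were. The 2 Bcat_KO libraries stood apart from the other 10: they were the deepest, at 29943990 and 40553891 counts, yet had a count for only 17917 and 17540 genes, against 21718 to 26929. Their erythroid sum was 39.8 and 28.7 CPM, against 1244 and 300 in the WT pair (6 of 9 markers fell), and the part of these differences in the calls was not tested. Fdft1 lay at 29.6 and 36.7 CPM in the WT pair and at 21.8 and 25.6 in Bcat_KO (-0.48 ± 0.16, adjusted p = 0.0432). The groups did not overlap, but leaving out Bcat_KO S4 (0.0569), Bcat_KO S3 (0.205) or WT S2 (0.332) ended the call, as did 6 of 10 other settings (0.0504 to 0.0811). Ctsb, which overlaps Fdft1, fell too (-0.38 ± 0.08, adjusted p = 0.00369). Fdps lay at 3.03 and 4.21 CPM against 1.05 and 0.377 (-2.36 ± 0.56, adjusted p = 0.00838), a call lost without WT S2 (0.0596) or Bcat_KO S4 (0.0621) in a gene whose counts are uncertain. Cyp51 lay at 45.9 and 44.6 CPM against 35.2 and 33.6 (-0.39) and Msmo1 at 19.9 and 26.7 against 13.5 and 16 (-0.66), both without overlap and not called. In all, 14 of the 29 genes had both Bcat_KO libraries below both WT libraries and 4 had both above, beside 32.6% and 26.8% of all genes tested.

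The wider lists were also counted in this experiment. In dKO, of 21 other genes of fatty acid supply, elongation and desaturation, 4 rose and 1 fell. This count and those of the other lists in dKO stand beside 9.15% higher and 8.52% lower of all genes. Hacd4, a dehydratase of the elongation cycle, lay at 37.4 and 33.9 CPM in the WT pair, at 89.4 and 83.1 in Hoxa9_KO and at 108 and 152 in dKO. Its log2 change was 1.28 ± 0.13 in Hoxa9_KO (adjusted p = 9.38e-06) and 1.87 ± 0.13 in dKO (adjusted p = 8.43e-08), with no overlap. The elongase Elovl5 fell by 0.49 on the log2 scale in dKO (adjusted p = 0.00179). Of 18 oxidation genes 5 rose in dKO and none fell, beside 9.15% and 8.52% of all genes, and 2 of the 5 calls held without any 1 library. Of the other calls, that of Eci2 was lost without any 1 of the 4 libraries (0.0575 to 0.19), that of Decr1 without WT S1 (0.083), WT S2 (0.13) or dKO S7 (0.175), and that of Slc25a20 without WT S1 (0.0984) or dKO S7 (0.127). In the other lists, dKO had 2 higher and 0 lower of 9 SREBP-processing genes (among them Rnf139, a ubiquitin ligase, at 0.62), 1 higher and 2 lower of 15 sterol and isoprenoid enzymes (among them Lbr, a sterol reductase of the nuclear membrane, at -0.62 ± 0.10, adjusted p = 0.000317), 3 higher and 1 lower of 14 efflux and trafficking genes, and 1 higher and 1 lower of 6 uptake genes. Vldlr, a lipoprotein receptor, lay at 22 and 26.7 CPM in the WT pair and fell to 6.01 and 2.16 in Hoxa9_KO (-2.59 ± 0.36, adjusted p = 0.00175) and 2.79 and 2.81 in dKO (-3.12 ± 0.37, adjusted p = 0.000227), while it lay at 53.9 and 51.6 in Bcat_KO. The calls of Hacd4, Elovl5, Rnf139, Lbr and Vldlr given here for Hoxa9_KO and dKO held without any 1 library. None of the 4 calls among efflux and trafficking genes did: Abca1 (0.92 ± 0.21, adjusted p = 0.00567) was lost without WT S2 (0.0733) or dKO S7 (0.105), and Nceh1 (0.55 ± 0.12, adjusted p = 0.0026) without dKO S7 (0.08).

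Of all genes, 4.44% were called higher and 2.3% lower in Hoxa9_KO, and 7.48% higher and 9.76% lower in Bcat_KO. In Hoxa9_KO the same lists held 2 higher of 9 SREBP-processing genes, 1 of 15 sterol and isoprenoid enzymes, 1 of 14 efflux genes, 3 of 21 fatty acid genes and 1 of 18 oxidation genes (Cpt1a, the gate of mitochondrial fatty acid import), with none lower, and 1 lower of 6 uptake genes (Vldlr). Of the 8 higher calls only that of Hacd4 held without any 1 library. In Bcat_KO they held 0 higher and 2 lower of 9, 0 and 0 of 15, 3 and 2 of 14, 1 and 3 of 21, 3 and 1 of 6, and 1 and 1 of 18, of which 0 and 1, 0 and 0, 1 and 1, 0 and 0, 1 and 1, and 0 and 0 held without any 1 library. Cd36, a fatty acid translocase, fell from 9.78 and 8.38 CPM to 1.14 and 0.943 in Bcat_KO (-3.12 ± 0.30, adjusted p = 3.13e-06), and Mylip, a ligase that degrades lipoprotein receptors, by 0.77 on the log2 scale (adjusted p = 0.00111), both among those that held. Beside these changes, genes of dividing cells summed to 1389 and 1461 CPM for WT, 1083 and 1273 for Hoxa9_KO, 1660 and 1685 for Bcat_KO and 731 and 509 for dKO (9 of 10 fell in dKO). The megakaryocyte sum was 192 and 143 CPM for WT, 643 and 679 for Hoxa9_KO, 271 and 261 for Bcat_KO and 1264 and 1059 for dKO (3, 2 and 4 of 4 tested rose), and the B cell sum was 450 and 544, 141 and 265, 61.7 and 60.2, and 130 and 64.3. Libraries of 1 group also differed from each other. The granulocyte sum was 2073 and 770 CPM in the WT pair, 229 in Hoxa9_KO S4 and 1384 in S5, 1154 and 1105 in Bcat_KO, and 2785 and 1618 in dKO. Most of the Bcat_KO sum was Mpo, at 1030 and 958 CPM against 413 and 322 in the WT pair. Ltf lay at 0 in both Bcat_KO libraries, against 209 and 52.1 CPM in the WT pair. Of the 9 granulocyte markers 4 fell and 0 rose in Bcat_KO. The erythroid sum was 1244 and 300 CPM in the WT pair, 268 and 167 in Hoxa9_KO, and 125 and 404 in dKO. Of the 10 LSK genes, 4 rose and 2 fell in Hoxa9_KO. In Bcat_KO 2 rose and 2 fell, and in dKO 3 rose and 4 fell. Kit lay at 271 and 269 CPM in the WT pair and at 354 to 461 in the knockouts, Cd34 at 765 and 715 in the WT pair and 260 and 191 in dKO (-1.71 ± 0.14, adjusted p = 1.03e-05), and Flt3 at 537 and 421 against 133 and 82.9 (-2.15 ± 0.22, adjusted p = 0.000429). Many of these marker calls were lost when 1 library or another was left out, among them most erythroid and all granulocyte calls in Bcat_KO. The part of all these markers in the results on the 29 genes was not tested.

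Set against the single knockouts, dKO differed from Hoxa9_KO in 1 of the 29 genes, where 1.75% of all genes were called. Fads2 was higher in dKO, at 214 and 263 CPM against 165 and 181 (0.46 ± 0.10, adjusted p = 0.0166), a call lost without Hoxa9_KO S4 (0.105) or dKO S7 (0.228), in fits to the groups compared (0.253) or the experiment (0.0532) alone and with a non-robust spread (0.0541). Ddx3y was high and Xist near 0 in all 4 of these libraries. dKO differed from Bcat_KO in 7 genes, 4 higher and 3 lower, where 28.1% of all genes were called (16.2% higher and 12% lower). Here Ddx3y was high in both groups, but Xist lay at 11.2 and 21.9 CPM in Bcat_KO and at 0.619 and 0.418 in dKO. The Bcat_KO libraries also had a count for fewer genes and a lower erythroid sum. The part of these differences in the calls was not tested. Fads1 (0.92 ± 0.10, adjusted p = 8.09e-06) and Fads2 (0.84 ± 0.10, adjusted p = 9.71e-06) were higher in dKO and kept their calls without any 1 library. The calls of Scd1 (1.21 ± 0.35, adjusted p = 0.0173), Fdps (1.72 ± 0.55, 0.0273), Acly (-0.26 ± 0.08, 0.017), Scd2 (-0.37 ± 0.13, 0.0387) and Idi1 (-0.64 ± 0.23, 0.0439) were each lost without at least 1 library: without Bcat_KO S3 at 0.0652 for Scd1 and 0.351 for Idi1, and without Bcat_KO S4 at 0.172 for Fdps, 0.196 for Acly and 0.109 for Scd2. Whether the dKO level differed from the sum of the 2 single changes was tested as a departure from additivity. No member was called in that edgeR test, in which 8.43% of all genes were, and 5 members had an unadjusted p under 0.05. DESeq2 and limma-voom also called 0 members. With 2 libraries a group, the lack of calls does not show that the single changes add up. WT also differed from all the knockout groups in the sex-linked genes, 4 of 5 of which were called lower in this test. A departure from additivity and a sex difference therefore cannot be told apart in it. With 1 library left out at most 1 member was called: Insig1 without Hoxa9_KO S4, Fdps without Bcat_KO S3, Fads1 without Bcat_KO S4, Fads2 without dKO S6 and Ebp without dKO S7. The departure was 0.36 for both Fads1 and Fads2, 2.03 for Fdps, and had a median of 0.12 over the 29 genes against 0.04 over all genes.

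The changes in dKO and in Prmt1_KO have separate controls, and their difference was tested directly. It was called for 4 of the 29 genes, 2 in each direction, where 15.7% of all genes were called (7.93% higher and 7.75% lower). Fads2 rose in dKO (0.95) and fell in Prmt1_KO (-0.29), a difference of 1.23 ± 0.14 (adjusted p = 1.15e-05) that held without any 1 of the 8 libraries. Fdft1 changed by -0.32 in dKO and -1.03 in Prmt1_KO, a difference of 0.71 ± 0.22 (adjusted p = 0.0384). Insig1 changed by -0.29 and 0.46, a difference of -0.75 ± 0.23 (adjusted p = 0.0343). Scd2 changed by -0.63 and -0.05, a difference of -0.57 ± 0.18 (adjusted p = 0.0431). The last 3 calls were lost without 7, 7 and 8 of the 8 libraries, at adjusted p of 0.0567 to 0.215 for Fdft1, 0.0511 to 0.125 for Insig1 and 0.0629 to 0.169 for Scd2. Those of Insig1 and Scd2 were also lost with scaling to library size (0.0934 and 0.179) and a non-robust spread (0.0663 and 0.0684). Ctsb, which overlaps Fdft1 on the opposite strand, changed by 0.48 in dKO and -0.36 in Prmt1_KO. That is a difference of 0.84 ± 0.11 (adjusted p = 7.7e-05), in the same direction as for Fdft1, and its part in the Fdft1 difference was not tested. Fads1 rose in both (0.80 and 0.69, a difference of 0.11 that was not called), and Idi1 fell in both (-0.79 and -1.08, a difference of 0.29 that was not called). For Sqle (0.88), Msmo1 (-0.98) and Cyp51 (0.60) the difference between the changes was not called.

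**Figure D4:**
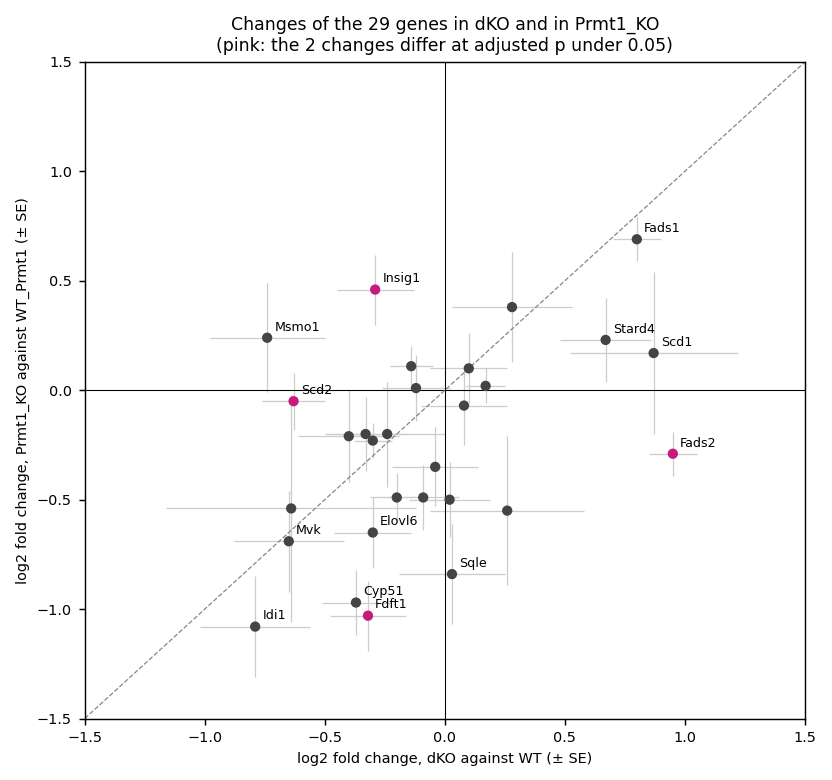
Log2 fold change of each of the 29 genes in dKO against WT (horizontal) and in Prmt1_KO against WT_Prmt1 (vertical), with standard errors and the line of equal change (dashed). The 4 genes whose changes differed by test are pink, with Fads2 at 0.95 and -0.29 farthest from the line, while Fads1 and Idi1 lie near it.

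The controls of the 2 experiments differed in the regulators. In WT_Prmt1 against WT, 7 of the 29 genes were lower and none higher, where 3.87% of all genes were lower and 3.71% higher (7.58% called). Srebf1 lay at 122 and 119 CPM in the WT pair and at 79.7 and 79.3 in WT_Prmt1 (-0.60 ± 0.09, adjusted p = 0.000605). Srebf2 lay at 365 and 344 CPM against 257 and 273 (-0.42 ± 0.08, adjusted p = 0.00227). Insig1 lay at 54.7 and 58.4 CPM against 24.8 and 26.6 (-1.14 ± 0.17, adjusted p = 0.000299). Scd2 completed this group of clear differences, at 278 and 261 CPM against 137 and 153 (-0.90 ± 0.13, adjusted p = 0.00054). These 4 calls held without any 1 library, and all libraries separated. Lss, at 13.2 and 19.5 CPM against 8.38 and 8.81 (-0.93 ± 0.25, adjusted p = 0.0311), was lost without WT S2 (0.361), WT_Prmt1 S10 (0.184) or WT_Prmt1 S11 (0.143), with a non-robust spread (0.0694) and with limma-voom (0.051). Msmo1, at 19.9 and 26.7 CPM against 9 and 12.7 (-1.10 ± 0.25, adjusted p = 0.00945), was lost without WT S2 (0.124) or WT_Prmt1 S10 (0.139). Fads1 (-0.35 ± 0.10, adjusted p = 0.0431) was lost without any 1 of the 4 libraries (0.0539 to 0.353), with scaling to library size (0.0554) and with a non-robust spread (0.0862). These groups differ by experiment, and both had Xist at 163 CPM or more. The stromal sum was 106 and 88.8 CPM in the WT pair and 391 and 667 in WT_Prmt1, and the megakaryocyte sum 192 and 143 against 46.1 and 43.2, whose part was not tested.

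For members called in some comparisons, the levels in the remaining groups were as follows. Sqle lay at 33.7 and 44.9 CPM in the WT pair, and 48.4 and 46.2 in Bcat_KO, with dKO at 37.3 and 43.2, so the Prmt1_KO libraries were the lowest of the 12. Nsdhl lay at 27.6 and 31.7 CPM in the WT pair, 35.5 and 34.4 in Hoxa9_KO and 22.8 and 29.1 in Bcat_KO, with dKO at 32.5 and 27.4, all but 1 of these above 24.7, the higher WT_Prmt1 value. Mvk lay at 15.5 and 15.2 CPM in Hoxa9_KO and 13.7 and 15.8 in Bcat_KO, below the WT pair in each. Idi1 in Hoxa9_KO (15.3 and 12.5 CPM) and Bcat_KO (16 and 11.5) overlapped WT. Fdft1 lay at 27.3 and 24.3 CPM in Hoxa9_KO and 26 and 27.2 in dKO, below the WT pair and well above Prmt1_KO. Cyp51 lay at 40.6 and 30.3 CPM in Hoxa9_KO and 33 and 36.9 in dKO, likewise between WT and Prmt1_KO. Lss lay at 23.2 and 16 CPM in Hoxa9_KO and 19.7 and 13.1 in Bcat_KO, and dKO at 19.3 and 20.6 overlapped WT. Fdps lay at 1.86 and 3.95 CPM in Hoxa9_KO and 2.44 and 2.2 in dKO, while WT_Prmt1 (5.26 and 2.79) and Prmt1_KO (2.51 and 2.99) overlapped.

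Among the fatty acid genes, Fasn lay at 205 and 211 CPM in the WT pair, 241 and 189 in Hoxa9_KO and 208 and 216 in Bcat_KO, with dKO at 163 and 199. Acaca lay at 49.8 and 58.7 CPM in the WT pair, 55.4 and 51.6 in Hoxa9_KO and 59 and 61.3 in Bcat_KO, with dKO at 40.4 and 61.2. Elovl6 lay at 46.2 and 52 CPM in the WT pair, 50.7 and 44.6 in Hoxa9_KO and 41.1 and 54.1 in Bcat_KO, with dKO at 35.4 and 44.3. For these 3 genes dKO S6 was the lowest library of the first experiment. Acly lay at 315 and 311 CPM in Hoxa9_KO and 306 and 321 in Bcat_KO, both overlapping WT. Scd1 lay at 6.55 and 4.99 CPM in Hoxa9_KO, above WT, and 3.37 and 3.77 in Bcat_KO, below it. Stard4 lay at 83.9 and 61.4 CPM in Hoxa9_KO and 60.5 and 70.2 in Bcat_KO, each overlapping WT. Insig1 lay at 46.8 and 51.4 CPM in Bcat_KO and 48 and 44.3 in dKO, below WT. Srebf1 lay at 123 and 110 CPM in Hoxa9_KO and 118 and 107 in Bcat_KO, with dKO at 102 and 117. Srebf2 lay at 404 and 391 CPM in Hoxa9_KO and 388 and 394 in Bcat_KO, with dKO at 371 and 424.

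Across all 9 comparisons the 29 genes had 45 calls. Of these, 16 held without any 1 library and under every other setting tried: Fads1 in 4 comparisons, Fads2 in 3, Scd2 in 2, and Idi1, Fdft1, Cyp51, Fasn, Srebf1, Srebf2 and Insig1 in 1 each. Acat2, Hmgcs1, Pmvk, Mvd, Hsd17b7, Ebp, Sc5d and Dhcr7 were called in no comparison. Their levels over the 12 libraries spanned 14.8 to 22.4 CPM for Acat2, 18.7 to 41.9 for Hmgcs1, 16 to 26.8 for Pmvk, 6.03 to 16.5 for Mvd, 3.43 to 11 for Hsd17b7, 37.9 to 55.9 for Ebp, 13.1 to 20.9 for Sc5d and 26.3 to 43.7 for Dhcr7.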

How the data were processed

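The deposited table held whole-number counts per gene for 12 libraries, made by the authors before deposit. Trimming with Trim Galore 0.6.6, alignment to GRCm38 (mm10) with STAR 2.7.6a and counting with featureCounts are listed in the submitters' processing notes. Per the labels, libraries were made with a directional kit. The sources used here do not give the strand setting or the annotation. Of nonzero values, 67.1 to 75.9% were even, so both mates of a pair appear to have been counted and counting error is larger than the counts imply.

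From these counts, normalised CPM were computed with TMM factors in edgeR 4.0.16 (R 4.3.3). Columns carry group names and S tags, and those named control were read as WT. Of the 55471 genes, 55230 matched GENCODE M21 by identifier, which gave symbols and coordinates. Genes were filtered with filterByExpr (minimum count 10). A robust quasi-likelihood fit used all 12 libraries with 1 coefficient per group, leaving 6 residual degrees of freedom, for 9 comparisons. The SE was obtained from the log2 change and the F value (absolute change over root F). The fit was tested on simulated data. It called 23% of simulated departures from additivity of 1 on the log2 scale, and 72% of those of 2. Alternatives used other scalings, filters, subsets of libraries, DESeq2 1.42.0 and limma 3.58.1 (voom), and each library was left out in turn.

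The members, lists and tests were chosen with earlier results of these data known. All 29 genes are accounted for by role. Values in every library are given for members called in at least 1 comparison, those with the smallest adjusted p first, and for Srebf1, Srebf2 and Insig1. Up to 3 called genes with the smallest adjusted p are named per other list and main comparison. Some genes of these lists that the rule would name are not reported here. A few more (Fads3, Rnf139, Mylip, Ctsb, Akap9) are named beside a result that touches them, some chosen after their values were seen. Copies of member transcripts were searched with blastn 2.17.0 (at least 95% identity over 150 bases).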

Additional observations from a re-analysis of the deposited data

Results flagged for a closer look

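For 4 genes the change in dKO against WT differed from the change in Prmt1_KO against WT_Prmt1 by a test of the difference itself (edgeR, adjusted over all genes). The difference was 1.23 on the log2 scale for Fads2, 0.71 for Fdft1, -0.75 for Insig1 and -0.57 for Scd2. The Fads2 difference was called without any 1 of the 8 libraries, whereas the others were each lost without 7 or more of the 8. Ctsb, whose exons overlap those of Fdft1, differed in the same direction (0.84), and its part in the Fdft1 difference was not tested. The experiments differ in their control libraries as well as in the gene targeted, and these cannot be told apart in the difference.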

How the results depend on the processing

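Of the 45 calls, 16 held in every alternative run. No called change reversed its sign. Among called changes, 390 values under other settings kept the call and 46 lost it, and with 1 library left out 100 kept it and 96 lost it. Leaving out a library leaves a group with 1 library, which is then assumed to vary like the other groups. Members called ranged with 1 library left out from 6 to 8 in Prmt1_KO, 3 to 8 in dKO, 1 to 5 in Hoxa9_KO, 0 to 2 in Bcat_KO, 0 to 1 in dKO against Hoxa9_KO, 3 to 5 in dKO against Bcat_KO, 0 to 1 for departure from additivity, 1 to 3 for the difference between the dKO and Prmt1_KO changes, and 4 to 6 in WT_Prmt1 against WT. All genes called ranged in the same order from 3977 to 4136, 1698 to 2939, 521 to 948, 1312 to 2115, 168 to 607, 3237 to 3851, 670 to 1388, 1842 to 2735 and 638 to 676.

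Members called in Hoxa9_KO were 2 in place of 4 with scaling to library size (2 higher, 0 lower), in fits to the groups compared or the experiment alone, and with a non-robust spread, a setting chosen after seeing the data. In Bcat_KO they were 1 in place of 2 with scaling to library size, a mean of at least 5 CPM, the experiment alone, a non-robust spread and limma-voom. For dKO against Hoxa9_KO they were 0 in place of 1 with the groups compared, the experiment alone and a non-robust spread. For dKO against Bcat_KO they were 4 in place of 7 with the groups compared, the experiment alone and limma-voom. For the difference between the dKO and Prmt1_KO changes they were 7 in place of 4 with the groups compared and with DESeq2, and 2 with a non-robust spread. With scaling to library size they were 3 higher and 0 lower there, and in dKO 2 higher and 5 lower. For WT_Prmt1 against WT they were 11 in place of 7 with the groups compared. All genes called in dKO against Hoxa9_KO were 623 without the filter, 3 with the groups compared, 157 with the experiment alone and 613 with DESeq2. They were 3041 in dKO against Bcat_KO and 2294 in WT_Prmt1 against WT with the groups compared, and for departure from additivity 955 with the groups compared or the experiment alone and 744 with limma-voom. With scaling to library size all called genes split into 1720 higher and 984 lower for the difference between the changes, and into 625 and 878 for departure from additivity. The cause of these differences was not tested.

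No paired analysis was possible because the columns carry S tags and no replicate numbers. A fit to the experiment alone has no value for WT_Prmt1 against WT or for the difference between changes, which span both experiments. With 2 libraries a group, members with few counts (Fdps at 16 to 95 and Scd1 at 38 to 284 per library) have the least precise changes.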
